A study of Rattus norvegicus with 9 samples.

Results

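The expression of 14770 genes was compared between stem cells grown from perirenal fat (PASCs, 3 samples) and from subcutaneous fat (SASCs, 3 samples) of rats, which make up 6 of the 9 samples in the data. The genes were those of the 35362 in the count table that had enough reads to be tested, and which genes were tested did not depend on how they moved. Cells were cultured from fat of Sprague Dawley males 6 weeks old. SASCs came from the fat of the groin, PASCs from the fat around the kidney, and EASCs, the third group (3 samples), from the fat beside the testis. No group was treated or genetically changed, and all cells shared one preparation: digestion with collagenase type I, selection by attachment to plastic, growth in high glucose medium with serum, and RNA extraction at passage 3, well by well from culture plates. The methods name 6 rats and 6 replicate wells a group, and 3 samples a group were analysed here. Nothing in the sources used here tells if each sample was its own rat or only its own culture well, and the p-values therefore measure the spread between these samples, which may be technical.

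Fat depots hold stromal progenitors that can become adipocytes and that also build the matrix and secrete growth factors and chemokines. Groin fat forms in the body wall, whereas perirenal and epididymal fat lie in the abdomen, next to a lining of mesothelium. Cultured progenitors are known to keep expressing part of the positional program of their depot, such as homeobox transcription factors. Total counts ranged from 17591916 to 24792355 in SASCs and from 18678082 to 30299032 in PASCs, and ribosomal RNA took 10.4% to 15.5% of the counts in SASCs and 22.4% to 32.9% in PASCs. In this bulk RNA, fewer cells of one type and less RNA per cell cannot be told apart.

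A gene counted as differentially expressed (DEG) where it changed more than 2-fold with a Benjamini-Hochberg adjusted p below 0.05 by the quasi-likelihood test of edgeR. By this rule 12.0% of all tested genes were upregulated in PASCs and 14.9% were downregulated, and the share of each gene class is read beside these. Values are counts scaled to the size of each library (CPM, after TMM scaling), and log2 fold changes are PASCs minus SASCs with their SE. In 71.6% of tested genes the 3 PASCs did not overlap the 3 SASCs, so separation of the samples is common here and is not particular to any class. The Notch and Hedgehog class had the highest share of downregulated members, 14 of 25, and the osteogenic, chondrogenic, and tendon class the highest share of upregulated members, 10 of 26, with 8 downregulated. At the other end, 5 classes of the basic machinery (respiratory chain, mitochondrial and cytosolic ribosome, chaperones and proteasome, and endoplasmic reticulum folding) had no downregulated member.

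**Figure D1:**
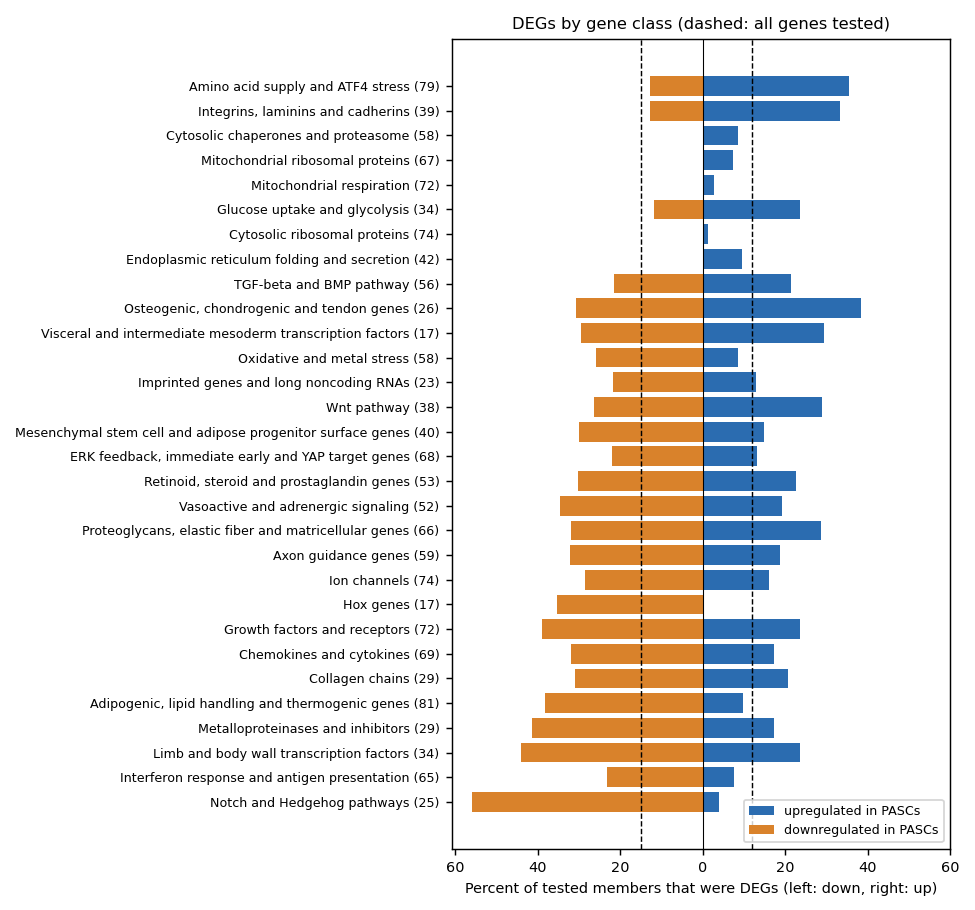
Percent of tested members of each of 30 gene classes that were upregulated (right, blue) or downregulated (left, orange) in PASCs against SASCs, ordered by median log2 fold change, with the number tested in parentheses and the shares of all tested genes as dashed lines (12.0% and 14.9%). The Notch and Hedgehog class reaches farthest to the left, with 14 of 25 members downregulated.

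The largest changes ran from genes nearly absent in SASCs to genes nearly absent in PASCs. Among the 12 largest increases were Anxa8 (annexin A8, a membrane-binding protein), Cdh3 (P-cadherin), Krt7 (keratin 7, an epithelial intermediate filament), Olr1 (a receptor for oxidized LDL), Prss35, PCOLCE2 (an enhancer of procollagen processing), Stac2, Fam132b (erythroferrone), Rasl12, and Fam64a. Krt7 was at 1.81, 1.91, and 1.56 CPM in SASCs and at 125, 129, and 123 CPM in PASCs, a 70.9-fold difference (log2 fold change 6.15 ± 0.089). Cdh3 (chr19:38668953-38719823, rn6, plus strand) was at 0.0695, 0.127, and 0.146 CPM in SASCs and at 35.7, 36.3, and 41.1 CPM in PASCs. Every PASC sample thus lay far above every SASC sample in both genes, and both were also high in EASCs, at means of 61.8 CPM for Krt7 and 65.8 CPM for Cdh3.

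Among the 12 largest decreases in the same ranking were secreted and matrix proteins: Ptn (pleiotrophin, a heparin-binding growth factor), Igfbp5 (a binding protein of insulin-like growth factors), Sned1, Cemip (which takes part in hyaluronan breakdown), and the carboxypeptidase family members Cpxm1 and Cpz. Loci without a gene name, left out of it, can fall as far, such as LOC100125362 (from 27.3 to 0.0249 CPM). They also included Ret and Ntrk2, receptors of neurotrophic factors, with Tmeff2, Myo7b, Acss3, and Art3. Igfbp5 (chr9:80154230-80166813, rn6, minus strand) was at 145, 153, and 159 CPM in SASCs and at 0.0765, 0.336, and 0.265 CPM in PASCs. Cemip was at 1486, 1461, and 1540 CPM in SASCs and at 9.72, 8.97, and 9.69 CPM in PASCs, a 158-fold decrease (log2 fold change -7.31 ± 0.080). Sned1, an extracellular protein, was at 640, 658, and 746 CPM in SASCs and at 4.02, 2.84, and 4.08 CPM in PASCs. In these 3 genes every PASC sample lay far below every SASC sample. Myo7b overlaps a more abundant gene, Lims2, on the other strand, and reads of the pair could not be told apart where they overlap.

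**Figure D2:**
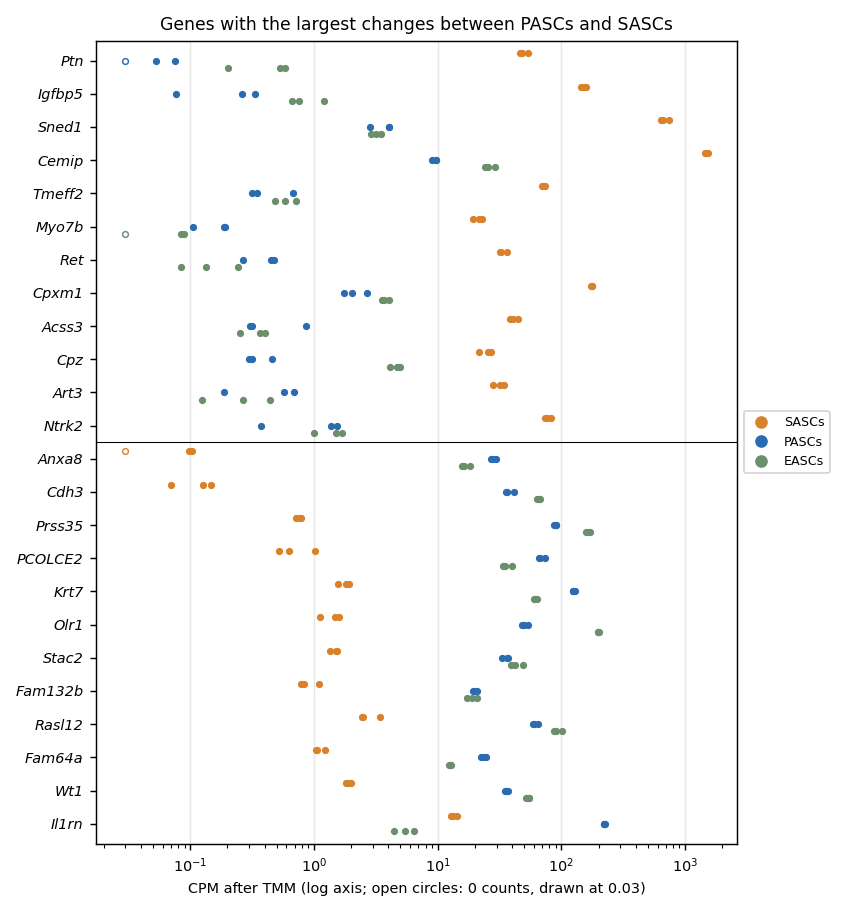
CPM of the 12 downregulated (top) and 12 upregulated (bottom) genes with the largest changes in the ranking of the text, in each of the 9 samples, on a log axis. Open circles are samples at 0 counts. The ranking took genes at 20 CPM or more in the higher group, without unnamed loci and without the classes not described here. SASC and PASC points are apart in all 24 genes, as their choice required, and in Il1rn the EASC points (mean of 5.45 CPM) lie far below those of PASCs (mean of 222 CPM).

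A stricter view is of genes detected in one of the 2 groups, at 2 CPM or more in all 3 samples of one group and at 3 counts or fewer in each sample of the other. There were 11 such genes in PASCs and 24 in SASCs. In PASCs they included Anxa8, Cdh3, Zbtb7c, Upk3b (uroplakin 3B, a mesothelial and urothelial membrane protein), and the cartilage matrix genes Acan (aggrecan) and Matn3 (matrilin 3). Several of these genes were also present in EASCs, at means of 65.8 CPM for Cdh3, 16.8 CPM for Anxa8, 10.6 CPM for Zbtb7c, 2.30 CPM for Upk3b, 1.77 CPM for Matn3, and 1.01 CPM for Acan. Acan had 111, 54, and 83 counts in PASCs and 0 counts in every SASC sample, so it was at least 28.2-fold higher in PASCs against a floor of 3 counts per library. Gsta2 and Gbx2 were the other PASC genes at 0 in all SASCs, but Gsta2 has near-identical relatives, which makes its counts uncertain.

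In SASCs the genes of this kind included Ptn, Lrat (the enzyme that stores retinol as esters), Mlana (melan-A, known from pigment cells), the phosphate hormone Fgf23, the limb transcription factor Tbx5, and Irx1. Of the 24 genes, 7 had 0 counts in all PASCs: Elfn2, Irx1, Fgf23, Pvalb, Trim63, Zbtb16, and Zdbf2, of which Trim63, Zbtb16, and Zdbf2, like Tbx5, lay outside the 12 most abundant and were singled out after their values were seen. Irx1 was at 6.88, 7.81, and 7.86 CPM in SASCs, at least 58.5-fold higher than in PASCs, and Elfn2 was at least 69.3-fold higher. Fgf23 was at 5.35, 5.39, and 4.88 CPM in SASCs, at least 40.5-fold higher, and it also had 0 counts in all EASCs.

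Of 17 tested factors of visceral and intermediate mesoderm, 5 were upregulated and 5 downregulated in PASCs. Wt1, the factor of kidney, gonad, and mesothelium development (chr3:95133242-95180574, rn6, plus strand), was at 1.91, 1.83, and 2.00 CPM in SASCs and at 35.4, 35.1, and 37.4 CPM in PASCs, an 18.8-fold increase (log2 fold change 4.23 ± 0.10, adjusted p = 4.69e-23). Osr2 and Osr1, odd-skipped factors of kidney and limb development, went the other way. Osr2 was at 15.0, 13.6, and 14.8 CPM in SASCs and at 0.995, 0.860, and 0.318 CPM in PASCs, and Osr1 fell by 1.92 on the log2 scale.

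Limb and body wall factors were downregulated in 15 of 34 cases and upregulated in 8. Irx2, of the same family as Irx1, was at 11.9, 13.8, and 12.8 CPM in SASCs and at 1.07, 0.561, and 1.54 CPM in PASCs. Tbx15, a T-box factor that differs between fat depots of mice and humans, was at 16.7, 17.2, and 17.7 CPM in SASCs and at 3.18, 4.07, and 3.18 CPM in PASCs (log2 fold change -2.29 ± 0.16). Among the upregulated factors were Foxc2 (from 0.665 to 5.21 CPM), Foxc1 (from 2.38 to 11.3 CPM), and Meox2 (from 4.52 to 12.3 CPM). Prrx1, the most abundant member, was at 384 to 438 CPM in SASCs and 318 to 336 CPM in PASCs and was no DEG.

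The Hox genes, which mark position along the body axis, split by cluster. In the Hoxb cluster 6 of 8 tested members were downregulated in PASCs (Hoxb3, Hoxb4, Hoxb5, Hoxb7, Hoxb8, and Hoxb9), and the median log2 fold change was -1.40. Hoxb7 was at 11.1, 11.1, and 8.84 CPM in SASCs and at 3.63, 5.01, and 3.39 CPM in PASCs. None of 6 Hoxc and 3 Hoxd genes tested was a DEG, and Hoxc6 was at 47.6 to 54.6 CPM in SASCs and 55.8 to 67.4 CPM in PASCs. The transcripts of neighbouring Hoxb genes overlap on the same strand, for example Hoxb3 with Hoxb5, so their counts are not fully separate. The Hoxa cluster gave no value: its genes were at 0 to 3 counts in every SASC and PASC library, and the table places some of them on chromosome 4 and others on an unplaced contig of that chromosome.

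Marker lists of other cell types were read in every library. A list of 12 mesenchymal genes summed to 32304 to 34116 CPM in SASCs and 34636 to 40700 CPM in PASCs, with 3 of 12 downregulated (Pdgfra, Dcn, and Lum) and none upregulated. Col1a1 makes up a large part of this sum and was higher in PASCs, so the sum does not show how the other members moved. Of 11 tested mesothelial markers 10 were upregulated in PASCs and 1, Cldn15, was downregulated (13.9 to 5.47 CPM), and the list summed to 39.5 to 40.3 CPM in SASCs against 244 to 246 CPM in PASCs. Msln (mesothelin) was at a mean of 12.5 CPM in SASCs and 36.2 CPM in PASCs, and Lrrn4 rose from 3.63 to 19.6 CPM, although it overlaps another gene, Crls1, on the other strand. The defining mesothelial or epithelial markers Calb2, Cdh1, Muc16, and Krt19 were at or near 0 in both groups. The changes in Krt7, Upk3b, and Wt1 above belong to this list, and the part of mesothelial cells in them was not tested.

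Macrophage and leukocyte markers summed to 63.4 to 69.3 CPM in SASCs and 148 to 154 CPM in PASCs, with 7 of 14 upregulated and none downregulated, among them Lyz2 (10.4 to 58.1 CPM) and Csf1r (3.54 to 12.6 CPM), while Cd3e and Cd79a had no counts. Endothelial markers summed to 90.2 to 94.8 CPM in SASCs and 42.7 to 48.0 CPM in PASCs, with 8 of 10 downregulated, including Pecam1 (10.6 to 1.11 CPM). Of the other two, Tek was upregulated (2.55 to 8.30 CPM), and Egfl7, the most abundant of the list, was no DEG (30.1 and 27.7 CPM). Schwann cell and melanocyte markers summed to 84.5 to 88.8 CPM in SASCs and 17.3 to 18.8 CPM in PASCs, with 3 of 7 downregulated (Mitf, S100b, and Mlana) and none upregulated, while the defining genes Sox10, Tyr, and Dct were at or near 0. Smooth muscle and pericyte markers summed to 233 to 251 CPM in SASCs and 3007 to 3312 CPM in PASCs, with 8 of 12 upregulated and 2, Rgs5 and Notch3, downregulated. Mature adipocyte markers summed to 156 to 168 CPM in SASCs and 42.7 to 48.9 CPM in PASCs. Adrenal markers summed to 3.22 to 4.24 CPM in SASCs and 34.6 to 37.7 CPM in PASCs, and skin markers to 1.85 to 2.47 CPM in SASCs and 9.14 to 11.4 CPM in PASCs. Brown adipocyte markers summed to 4.88 to 5.88 CPM in SASCs and 9.12 to 10.4 CPM in PASCs, with 1 of 4 tested upregulated, Prdm16 (1.65 to 6.60 CPM), and 1 downregulated, Ppargc1a (1.46 to 0.163 CPM), while Ucp1, Elovl3, Dio2, and Cox8b had 1 count or none in each SASC and PASC library. Kidney markers summed to 0.637 to 0.781 CPM in SASCs and 1.57 to 2.32 CPM in PASCs, with 2 of 3 tested upregulated. No testis or epididymis marker was abundant enough to be tested. Skeletal muscle markers summed to a median of 12.2 CPM in SASCs and 30.1 CPM in PASCs, of which Des, also in the smooth muscle list, made up a mean of 27.9 CPM in PASCs, while Myf5, Pax7, and Myog had 0 counts in every SASC and PASC library. EASC sums were above those of PASCs for smooth muscle (6701 to 7043 CPM), macrophage (241 to 251 CPM), skeletal muscle (185 to 200 CPM), endothelial, and kidney markers. They were below those of PASCs for mesothelial (223 to 236 CPM), mature adipocyte (24.2 to 25.0 CPM), and Schwann cell and melanocyte markers (8.29 to 8.99 CPM).

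**Figure D3:**
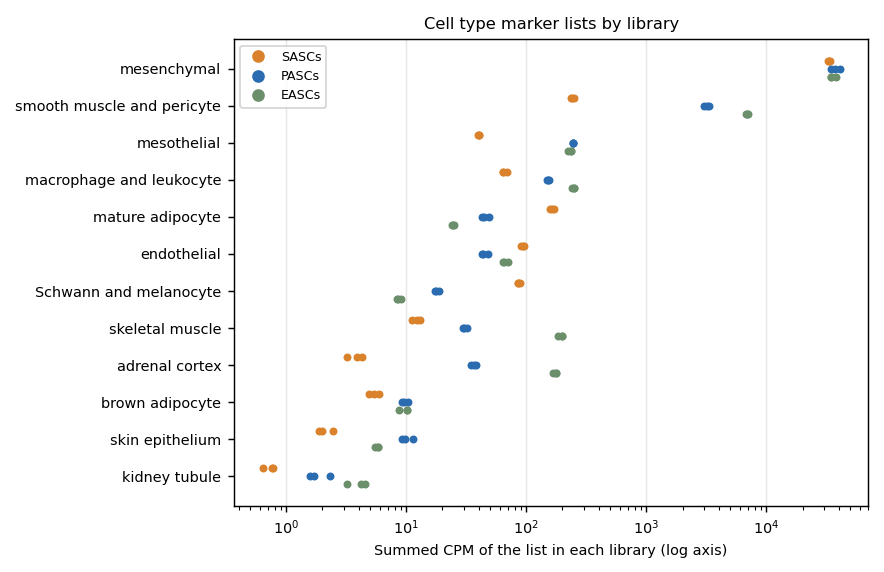
Summed CPM of each cell type marker list in each of the 9 libraries, on a log axis. The mesenchymal list, of which Col1a1 makes up a large part, lies between 32304 and 40700 CPM in all libraries. The mesothelial list lies at 39.5 to 40.3 CPM in SASCs and 244 to 246 CPM in PASCs.

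The matrix differed in composition. Collagen chains had 6 upregulated and 9 downregulated members of 29. The fibrillar chain Col5a1 rose from 808 to 1805 CPM, Col7a1 (the chain of anchoring fibrils) from 0.490 to 11.4 CPM, and Col8a2 (a network-forming chain) from 55.8 to 340 CPM. Col5a1 was no DEG with libraries scaled by total counts. Col18a1, a basement membrane chain, was at 198, 190, and 194 CPM in SASCs and at 20.8, 21.6, and 22.5 CPM in PASCs (log2 fold change -3.17 ± 0.061), and Col6a1 and Col14a1 were downregulated with it. Col1a1, the main chain of collagen I, was the most abundant collagen, at 10204 to 11183 CPM in SASCs and 17117 to 21442 CPM in PASCs, a difference under the 2-fold limit.

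Small leucine-rich proteoglycans, which bind collagen fibrils and growth factors, were mostly downregulated, 6 of 10, with 1 upregulated. Decorin (Dcn) was at 7024, 6900, and 6716 CPM in SASCs and at 209, 215, and 230 CPM in PASCs, a 31.6-fold decrease (log2 fold change -4.98 ± 0.071). Lumican (Lum) was at 3243, 3240, and 3217 CPM in SASCs and at 90.2, 86.6, and 102 CPM in PASCs. Per length, Dcn fell from a mean RPKM of 3753 to 119 and Lum from 1871 to 53.9. Biglycan (Bgn), by contrast, was at 2714 to 2938 CPM in SASCs and 3116 to 3555 CPM in PASCs and was no DEG.

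Elastic fiber genes had 4 upregulated and 5 downregulated members of 17. Fbln2 (fibulin-2) was at 304, 291, and 282 CPM in SASCs and at 2538, 2392, and 2641 CPM in PASCs, and Lox (lysyl oxidase, which cross-links collagen and elastin) rose from 481 ± 10.3 to 2392 ± 246 CPM (mean ± SD, n = 3). Efemp1 fell from 44.2 to 2.07 CPM and Loxl1 from 702 to 313 CPM. Of 25 matricellular genes, 9 were upregulated, among them Ctgf (a matricellular growth modulator) from 372 to 2476 CPM, Tnc (tenascin C) from 218 to 981 CPM, and Spon2 from 22.2 to 302 CPM, and 6 were downregulated, among them Mgp (matrix Gla protein), Spon1, and Tgfbi. Mgp was at 186, 231, and 203 CPM in SASCs and at 8.99, 10.5, and 8.53 CPM in PASCs. Of 14 large and cell surface proteoglycan genes 5 were upregulated, among them Cspg4, Sdc1, and Sdc3, and 4 downregulated, among which Gpc3 (glypican 3) fell from 45.4 to 1.22 CPM.

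Of 25 matrix proteases 5 were upregulated and 10 downregulated. Mmp2, a gelatinase, was at 4188, 4446, and 4377 CPM in SASCs and at 833, 822, and 835 CPM in PASCs, and Mmp14, which activates it, was at 1867, 2031, and 1957 CPM in SASCs and at 317, 295, and 323 CPM in PASCs. Of 14 ADAMTS proteases 7 were downregulated, led by Adamts15 (from 111 to 7.64 CPM), and 3 were upregulated, among them Adamts6. The inhibitors Timp2 and Timp3 were downregulated, while Timp1 was at 285 to 291 CPM in SASCs and 282 to 295 CPM in PASCs. Genes of collagen processing had 4 upregulated members of 18 and no downregulated one. The lysyl hydroxylase Plod2 was at 38.7, 37.7, and 39.7 CPM in SASCs and at 435, 432, and 476 CPM in PASCs, an 11.6-fold increase. Serpinh1, the collagen chaperone, rose by 0.66 on the log2 scale and was no DEG.

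Integrins, laminins, and cadherins together had 13 upregulated and 5 downregulated members of 39. The integrin subunits Itgb3 (from 2.48 to 17.3 CPM), Itga3, Itga5, and Itga11 were upregulated, and Itgb1, the most abundant subunit, rose by 0.79 and was no DEG. Itga3 lost the call with libraries scaled by total counts. Of 10 laminin chains 3 were upregulated and 1 was downregulated. The chain Lamb3 rose 9.42-fold from a mean of 1.24 CPM, and Lama3 was at 16.7, 15.6, and 17.7 CPM in SASCs and at 6.54, 5.35, and 6.51 CPM in PASCs. Cdh11, a mesenchymal cadherin, rose from 31.2 to 82.5 CPM, and Cdh5, the endothelial cadherin, fell from 9.20 to 1.13 CPM.

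Surface genes used to describe these cells also differed. Of 21 stem cell surface markers 2 were upregulated and 6 downregulated. Anpep (CD13, an aminopeptidase) was at 2486, 2603, and 2759 CPM in SASCs and at 144, 146, and 162 CPM in PASCs, a 17.3-fold decrease. Pdgfra, the receptor by which adipose progenitors are often recognized, was at 1517, 1526, and 1585 CPM in SASCs and at 267, 269, and 298 CPM in PASCs. Of 19 genes of progenitor subtypes 4 were upregulated and 6 downregulated. Dpp4, a marker of interstitial progenitors, was downregulated to 1.44 CPM, whereas Anxa3 (from 2.76 to 29.7 CPM) and Clec11a (from 5.84 to 25.0 CPM) rose.

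Wnt signaling acts through secreted ligands, Frizzled receptors, and secreted inhibitors that trap the ligands. Of 7 tested ligands and enhancers 4 were upregulated, among them Wnt9a (from 1.85 to 8.82 CPM) and the enhancer Rspo1 (from 3.46 to 10.9 CPM), and Wnt5a was downregulated from 84.3 to 26.9 CPM. None of 8 secreted inhibitors was upregulated, and 4 were downregulated. Sfrp2 was at 59.6, 57.6, and 58.9 CPM in SASCs and at 1.07, 1.72, and 1.80 CPM in PASCs, and Dkk3 was at 443, 426, and 443 CPM in SASCs and at 90.3, 79.7, and 89.4 CPM in PASCs. Of 7 target genes 5 were upregulated, and Axin2, a feedback inhibitor commonly read as a Wnt target, rose from a mean of 0.126 to 2.61 CPM, while Apcdd1 was downregulated. Of 16 Wnt receptors 2 were upregulated, Fzd1 and Fzd2, neither of them a DEG with libraries scaled by total counts, and 4 were downregulated, Fzd3, Fzd7, Lgr5, and Ror1. Ror1, a receptor of Wnt5a, fell from 69.5 to 11.2 CPM.

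In the TGF-beta and BMP pathway 12 of 56 members were upregulated and 12 downregulated. Among ligands, Inhba (the activin A subunit) was at 34.1, 33.2, and 37.4 CPM in SASCs and at 260, 257, and 282 CPM in PASCs, and Tgfb3, Tgfb1, and Bmp6 were upregulated with it. Tgfb1 lost the call with libraries scaled by total counts. Gdf10 fell from 13.7 to 0.429 CPM. Of 12 receptors none was upregulated and 3 were downregulated: Tgfbr2, the type II receptor, was at 1489, 1480, and 1567 CPM in SASCs and at 295, 277, and 296 CPM in PASCs, and the co-receptor Tgfbr3 fell from 594 to 117 CPM. The antagonists Fstl3 and Bmper rose and Chrdl1 fell. Of 11 target genes 1 was upregulated, Pmepa1 (from 7.09 to 94.5 CPM).

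Genes of the insulin-like growth factor axis were downregulated in 6 of 14 cases and upregulated in 1. Igf1 was at 318, 308, and 314 CPM in SASCs and at 28.9, 30.8, and 27.0 CPM in PASCs, and Pappa, the protease that frees the factor from its binding proteins, was at 186, 194, and 216 CPM in SASCs and at 16.0, 17.1, and 19.5 CPM in PASCs. Igfbp5, Igfbp4, and Stc1 were downregulated as well, and the binding protein Igfbp2 was the upregulated member. Of 11 genes of the FGF axis 4 were upregulated (the ligands Fgf1, Fgf18, and Fgf22 and the receptor Fgfr3) and 3 downregulated, Fgf23 and the ligands Fgf10 and Fgf7, which fell by 2.70 and 1.11 on the log2 scale.

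Of 25 angiogenic and PDGF genes 12 were downregulated and 3 upregulated. Angpt1 (angiopoietin 1) was at 260 to 282 CPM in SASCs and fell to a mean of 21.1 CPM in PASCs, and Kdr, a VEGF receptor of endothelium, fell from 18.1 to 1.67 CPM. Pgf (placental growth factor) rose from 0.728 to 8.28 CPM. Endothelial markers fell in the same samples (8 of 10, above), and their part in these differences was not tested. Neurotrophic and heparin-binding genes divided into 6 upregulated and 6 downregulated of 14. The ligands Artn and Gdnf were upregulated, while the receptor Ret was at 36.4, 32.8, and 32.2 CPM in SASCs and at 0.268, 0.449, and 0.477 CPM in PASCs, and Ntrk2 was at 77.2, 73.9, and 82.3 CPM in SASCs and at 1.38, 1.53, and 0.371 CPM in PASCs. The EGF family ligands Nrg1, Tgfa, and Hbegf were upregulated, and the receptor Egfr fell by 1.01, just past the limit. Egfr was no DEG when PASC replicate 1 or 2 or SASC replicate 3 was left out (fall of 0.97, 0.99, and 0.95).

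Notch signaling passes between touching cells through Delta and Jagged ligands. Of 16 tested Notch genes 11 were downregulated and 1 upregulated, with a median log2 fold change of -1.96. The receptor Notch3 was at 46.1, 48.5, and 49.6 CPM in SASCs and at 3.83, 4.97, and 4.50 CPM in PASCs, and Jag1 fell from 17.3 to 4.73 CPM. The ligands Dll1, Dll4, and Jag2, the receptors Notch1 and Notch4, and the targets Heyl, Nrarp, and Hes1 were downregulated as well, and Dlk2, a Delta-like protein, rose from 0.266 to 2.20 CPM. Notch2, the most abundant receptor, was at 136 to 158 CPM in SASCs and 172 to 198 CPM in PASCs and was no DEG. Several of these genes are typical of endothelium or of pericytes, whose markers moved as given above, and the part of such cells in them was not tested. In the Hedgehog pathway the co-receptors Gas1 (from 1267 to 77.5 CPM) and Cdon and the factor Gli2 were downregulated, 3 of 9.

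**Figure D4:**
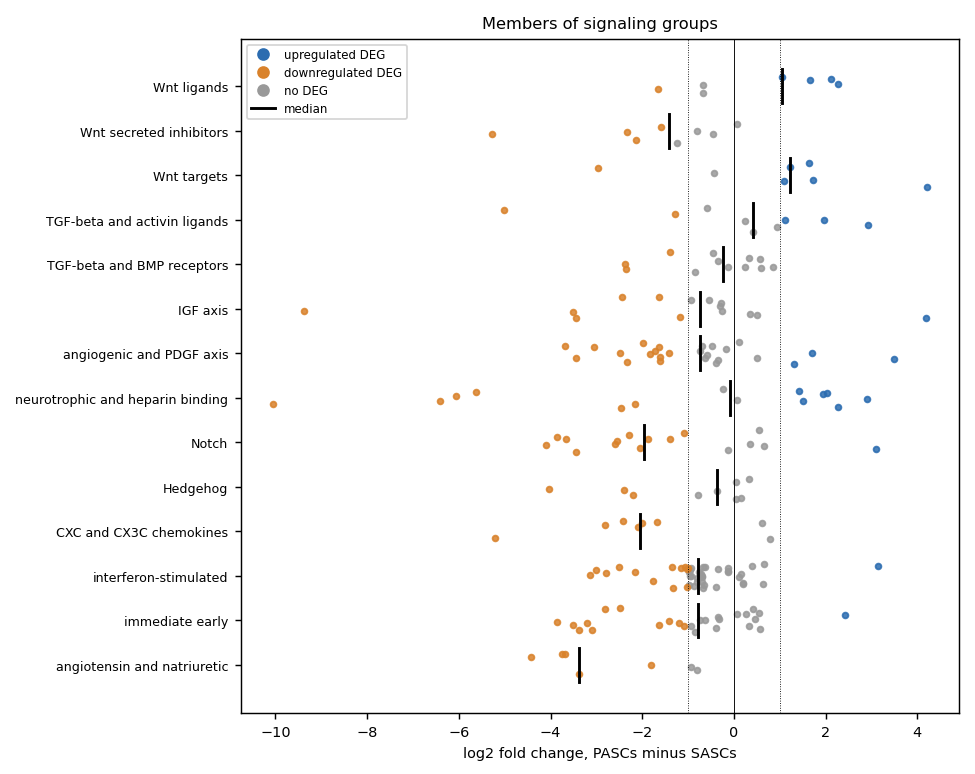
Log2 fold change (PASCs minus SASCs) of each tested member of 14 signaling groups, colored by DEG call, with the group median as a black bar and dotted lines at a fold change of 2. The angiotensin and natriuretic group has the lowest median, -3.38, and Wnt targets the highest, 1.23.

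Chemokines and cytokines were downregulated in 22 of 69 cases and upregulated in 12. None of 19 tested chemokines was upregulated. Cxcl13, which attracts B cells, was at 256, 253, and 261 CPM in SASCs and at 8.03, 6.28, and 6.51 CPM in PASCs, Cxcl12 fell from 5246 to 1234 CPM, and Cxcl14 and Cxcl1 were downregulated too. Il6 fell from 37.8 to 9.53 CPM, but it overlaps a more abundant gene, Kmt2c, on the same strand. Of 20 interleukins and other cytokines 6 were upregulated and 6 downregulated. Among those upregulated was Il1rn, the natural antagonist of interleukin 1 (chr3:1450536-1468624, rn6, plus strand). Il1rn was at 13.3, 12.7, and 14.3 CPM in SASCs and at 224, 221, and 220 CPM in PASCs, a 16.5-fold increase (log2 fold change 4.04 ± 0.075, adjusted p = 1.52e-25). The receptor Il1r1 was at 536 to 576 CPM in SASCs and 364 to 377 CPM in PASCs and was no DEG.

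Interferon-stimulated genes, which carry antiviral defence, were downregulated in 13 of 44 cases and upregulated in 1, and 31 were lower at an adjusted p under 0.05 at any fold, against 34.6% of all genes. With libraries scaled by total counts 27 were downregulated. Parp9 was at 52.0, 45.1, and 49.9 CPM in SASCs and at 13.5, 15.1, and 14.4 CPM in PASCs, and Ifit2 fell from 116 to 57.1 CPM. Ifi44l, Ifit3, Oas1a, and Rtp4 fell by 2.50 to 3.14 on the log2 scale from SASC levels of 2.63 to 3.51 CPM. Zbp1, a sensor of nucleic acids, rose from 1.44 to 12.7 CPM. Of class I antigen presentation genes 15 of 18 were no DEGs, B2m among them, and the 3 tested class II genes (Cd74, RT1-Da, and Ctss) were upregulated from low levels, beside the rise of macrophage markers given above.

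The promoters of the interferon-stimulated genes are shown because these genes share a known element, recognized by interferon-regulated factors. RefSeq promoters (GRCr8, 250 bases before to 50 after the start) were matched for 35 of the 44 genes, and GAAANNGAA was searched on both strands, where N is any base. It was found in 27 of the 35, against 9.71% of all 33469 promoters. It was held by 9 of the 11 downregulated genes with a promoter and by 18 of the 24 that were no DEGs, so the element was common to the group and not only to its downregulated members. The stretches around the matches are printed for some of the downregulated genes only, as examples. None of the 18 genes that held the element and were no DEGs is printed. The stretches run 5′ to 3′ on the strand of the gene, with the matches in capitals (a match on the other strand is shown as its reverse complement). A match is a description of these letters only.
Ifit3, chr1:241527263-241527330, plus strand: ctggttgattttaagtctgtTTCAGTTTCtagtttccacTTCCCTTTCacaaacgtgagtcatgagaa
Ifi44l, chr2:243328613-243328692, plus strand: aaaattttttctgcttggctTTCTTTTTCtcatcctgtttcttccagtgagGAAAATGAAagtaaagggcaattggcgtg
Oas1a, chr12:41330405-41330459, plus strand: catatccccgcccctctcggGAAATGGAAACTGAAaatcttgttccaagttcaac
Gbp2, chr2:234005677-234005725, plus strand: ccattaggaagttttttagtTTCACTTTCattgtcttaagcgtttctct
Igtp, chr10:42874924-42874972, plus strand: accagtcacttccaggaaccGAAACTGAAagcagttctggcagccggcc

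Immediate early genes, which respond within minutes to growth factors and handling, were downregulated in 11 of 26 cases and upregulated in 1. Egr1 was at 357, 385, and 418 CPM in SASCs and at 34.8, 32.0, and 34.6 CPM in PASCs, and Fos was at 44.4, 45.0, and 44.9 CPM in SASCs and at 4.86, 4.30, and 5.56 CPM in PASCs. Egr2, Egr3, Zfp36, Btg2, and Junb were downregulated as well, and Klf2 was the only upregulated member (from 5.49 to 29.4 CPM). Targets of YAP, a factor that responds to cell spreading, had 4 upregulated members of 22, with Nuak2 and Ajuba beside Ctgf, and 1 downregulated member, Gadd45a.

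Of 100 adipogenic, lipid handling, and thermogenic genes 81 were tested, of which 31 were downregulated, 8 were upregulated, and 42 were no DEGs. Of 38 lipid handling and adipokine genes 20 were downregulated and 1 was upregulated. Lpl (lipoprotein lipase) was at 1694, 1709, and 1763 CPM in SASCs and at 102, 111, and 133 CPM in PASCs, a 15.0-fold decrease. Rarres2 (the adipokine chemerin) was at 449, 446, and 385 CPM in SASCs and at 13.2, 12.4, and 11.1 CPM in PASCs, but it overlaps Lrrc61 on the other strand. Apoe fell from 830 to 56.7 CPM, and the lipid droplet gene Plin1, the fatty acid binding protein Fabp4, and the hormone Adipoq were downregulated from SASC levels of 27.2 to 35.2 CPM. Of 28 adipogenic transcription factors 7 were downregulated and 3 upregulated (Klf2, Gata2, and Gata3), and Pparg, the main one, was at 13.8, 14.0, and 11.4 CPM in SASCs and at 3.52, 4.26, and 4.61 CPM in PASCs. Cebpd was no DEG. All 7 tested markers of mature adipocytes were among these lower genes, and their part in the group's counts was not tested. Of 15 thermogenic genes 4 were upregulated (Prdm16, Ucp2, Ckb, and Esrra) and 4 downregulated (Ppargc1a, Ppargc1b, Mpzl2, and Tnfrsf9), with a median log2 fold change of -0.53, while Ucp1, which defines brown adipocytes, was at or near 0 in all libraries.

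Genes of protein synthesis and breakdown were shifted upward together by less than 2-fold. At an adjusted p under 0.05 at any fold, 63 of 72 tested nuclear genes of the respiratory chain were higher in PASCs, as were 56 of 67 mitochondrial ribosomal proteins, 67 of 74 cytosolic ribosomal proteins, 19 of 20 aminoacyl-tRNA synthetases, and 32 of 34 proteasome subunits, against 34.6% of all genes. Few of them were DEGs: 2, 5, 1, 4, and 2. The median log2 fold changes were 0.50, 0.54, 0.34, 0.70, and 0.56, against -0.01 for all genes. Atp5b, of the ATP synthase, was at 390, 391, and 344 CPM in SASCs and at 784, 745, and 682 CPM in PASCs, and Rplp0 was at 1446, 1433, and 1262 CPM in SASCs and at 1953, 1946, and 1862 CPM in PASCs. The only DEG among cytosolic ribosomal proteins, Rps9, was at 0.0373 and 0.520 CPM, far below its relatives. Reads of ribosomal protein genes can be shared with their many pseudogenes.

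Gene length and library scaling moved with these shifts. Short genes were higher in PASCs as a whole: the median log2 fold change was 0.26 in the shortest and -0.24 in the longest of 4 equal bins of gene length, and 88.9% of the respiratory chain genes and 98.6% of the cytosolic ribosomal proteins belong to the shortest bin. Against genes of the same length bin, the medians were 0.24 for the respiratory chain, 0.31 for the mitochondrial ribosome, 0.07 for the cytosolic ribosome, 0.78 for tRNA synthetases, and 0.35 for the proteasome. Scaling by total counts alone put the median over all tested genes at -0.33. The same groups then had medians of 0.17, 0.21, 0.01, 0.37, and 0.23, and 11, 20, 4, 10, and 11 members were higher at an adjusted p under 0.05. The median of the respiratory chain then lay 0.50 above the median of all genes against 0.51 with TMM.

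Genes of amino acid supply and the ATF4 stress response were upregulated in 28 of 79 cases and downregulated in 10. Of 13 serine and one-carbon genes 9 were upregulated and 2 downregulated, with a median log2 fold change of 1.66, which was 1.63 against genes of the same length bin. Phgdh, the first enzyme of serine synthesis, was at 13.6, 13.2, and 10.6 CPM in SASCs and at 77.5, 76.5, and 71.5 CPM in PASCs, and Psat1, Psph, and Shmt2 of the same route were upregulated with it. Mthfd2, a mitochondrial folate enzyme, was at 18.3, 20.2, and 16.3 CPM in SASCs and at 131, 125, and 120 CPM in PASCs. Tyms of this group also serves DNA synthesis, and 193 of 201 tested cell cycle genes were upregulated in the same samples. The folate enzyme Aldh1l1 was among those downregulated.

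Genes of the ATF4 stress response, which reacts to amino acid shortage, had 8 upregulated members of 19 and 1 downregulated. Chac1 rose from 7.09 to 43.5 CPM, Trib3 from 12.8 to 66.5 CPM, and Asns (asparagine synthetase) from 58.8 to 155 CPM, while Atf4 itself rose by 0.95 and was no DEG, and Atf3 was downregulated. Amino acid transporters divided into 7 upregulated, among them Slc38a1 and Slc7a1, and 7 downregulated of 27, among them Slc7a8 and Slc6a6. TGATGNAAT, a form of the ATF4 element, was in none of the 17 promoters of ATF4 stress genes and none of the 9 of serine and one-carbon genes that were matched, and in 1.09% of all promoters. It was in 2 of 17 promoters of aminoacyl-tRNA synthetases, those of Aars and Iars. A missing match says only that these letters are not in those windows.

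Glycolytic genes were upregulated in 8 of 26 cases and downregulated in 1, Aldoc. With libraries scaled by total counts 5 were upregulated and 2 downregulated, and 9 were higher and 8 lower at an adjusted p under 0.05, against 16 and 6 with TMM. The lactate exporter Slc16a3 was at 31.6, 30.8, and 28.9 CPM in SASCs and at 253, 231, and 221 CPM in PASCs, but it overlaps Csnk1d on the other strand. Ldha (lactate dehydrogenase A) was at 642, 641, and 584 CPM in SASCs and at 1885, 1737, and 1628 CPM in PASCs, and Eno1, Gapdh, and Pkm were upregulated as well. Of 8 glucose transporters 3 were downregulated, the insulin-responsive Slc2a4 among them, and Slc2a1, the most abundant, rose by 0.73 and was no DEG.

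**Figure D5:**
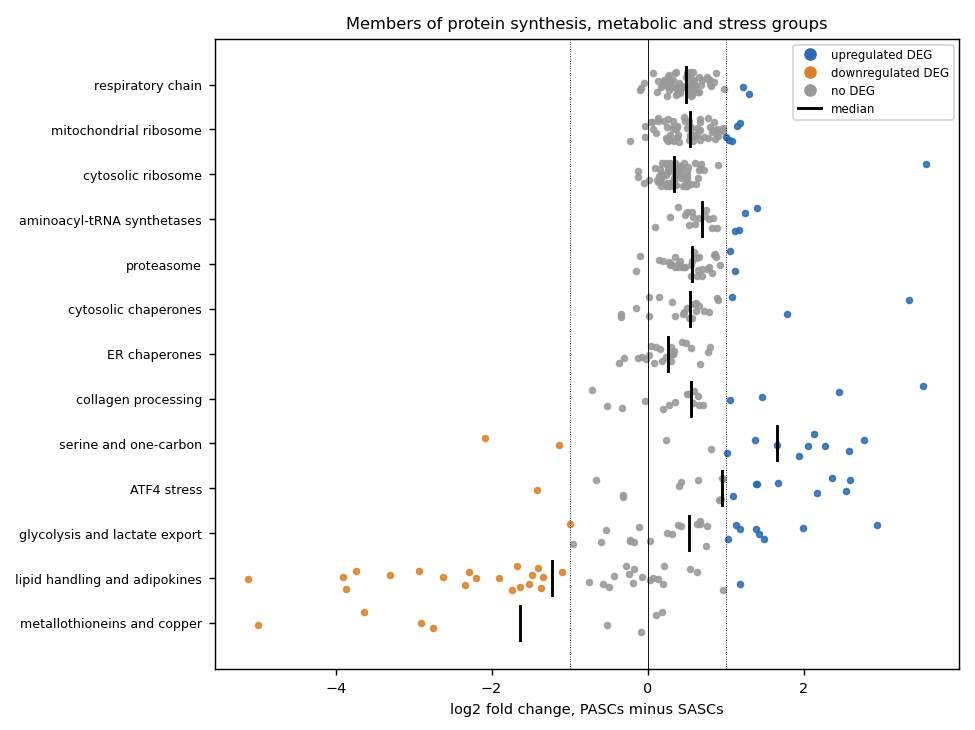
Log2 fold change (PASCs minus SASCs) of each tested member of 13 protein synthesis, metabolic, and stress groups, colored by DEG call, with the group median as a black bar and dotted lines at a fold change of 2. The cytosolic ribosomal, respiratory, and proteasome groups have medians of 0.34, 0.50, and 0.56, whereas serine and one-carbon genes have a median of 1.66 and lipid handling genes of -1.22.

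Of 8 metallothionein and copper genes 4 were downregulated and none upregulated, namely the metallothioneins Mt1a and Mt2A, which bind zinc and copper, with Cp and Steap4. Mt2A was at 1615, 1542, and 1491 CPM in SASCs and at 121, 129, and 124 CPM in PASCs, and Mt1a was at 438, 350, and 420 CPM in SASCs and at 54.7, 54.2, and 52.0 CPM in PASCs, though these near-identical genes may share reads. Targets of NRF2, the regulator of the response to oxidants, did not move one way, with 3 upregulated and 7 downregulated of 35. Nqo1 (from 90.8 to 334 CPM) and Me1 were upregulated, while Hmox1 (from 507 to 101 CPM), Mgst1, and Aox1 were downregulated. Me1 was no DEG with libraries scaled by total counts. TGACNNNGC, the core of the element of NRF2, was in 7 of 26 matched promoters of the group, against 12.1% of all promoters. Of 15 antioxidant enzymes 4 were downregulated (Sepp1, Sod2, Sod3, and Gpx3) and 2 upregulated (Gpx1 and Prdx5).

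Retinoid, steroid, and prostaglandin genes were upregulated in 12 and downregulated in 16 of 53 cases. Of 7 angiotensin and natriuretic genes 5 were downregulated and none upregulated. Npr3, the clearance receptor of natriuretic peptides, was at 122, 123, and 120 CPM in SASCs and at 6.08, 4.90, and 6.09 CPM in PASCs, and the angiotensin receptor Agtr1a fell from 282 to 27.1 CPM. The peptidases Mme (neprilysin) and Ace were downregulated by 3.74 and 3.69 on the log2 scale. Of glucocorticoid and steroid genes Hsd11b1, which activates glucocorticoids, fell from 569 to 165 CPM and the receptor Nr3c1 from 207 to 82.9 CPM, while Star, which carries cholesterol into mitochondria, rose from 2.41 to 34.4 CPM. Of the adrenal list, Nr5a1 and Cyp11a1 were at or near 0 in both groups, Cyp11b2 (aldosterone synthase) was upregulated from 0.0772 to 1.71 CPM, and Cyp21a1, which overlaps Stk19 on the same strand and is uncertain, was downregulated from 1.19 to 0.0380 CPM. The part of adrenal cells in these values was not tested. In the prostaglandin group Ptgis (prostacyclin synthase) rose from 2.31 to 29.3 CPM, and Hpgd, which inactivates prostaglandins, fell from 31.2 to 3.35 CPM.

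Some of these levels set PASCs apart from both other depots. PASCs and EASCs were compared in the same fit, where 7.39% of genes were DEGs, 2.20% of genes were upregulated and 5.19% downregulated in PASCs. The 2 comparisons share the PASC samples, so their values are given side by side and are not independent. Il1rn was at a mean of 5.45 CPM in EASCs, and the log2 fold change of PASCs was 4.04 against SASCs and 5.35 against EASCs. Lamb3 (3.55 CPM in EASCs) rose by 3.24 and 1.70, Wnt9a (3.13 CPM) by 2.28 and 1.51, Nrg1 (3.31 CPM) by 2.98 and 1.56, and Sema3d (6.15 CPM), a guidance ligand, by 1.77 and 1.84. Each of these was a DEG against both depots.

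In the other direction, Gja5 (connexin 40, a gap junction protein of arterial endothelium) was at 58.6, 57.0, and 57.2 CPM in SASCs, and at 6.16, 6.24, and 6.83 CPM in PASCs. Its log2 fold change in PASCs was -3.17 against SASCs and -3.26 against EASCs. Cdh5 was lower by 2.99 and 3.08, and Notch3 by 3.44 and 2.34. Of Hoxb genes, Hoxb4 was lower by 1.44 and 1.68 and Hoxb5 by 1.74 and 1.64, and of all 8 tested members 7 were downregulated against EASCs. Notch genes were downregulated in 10 of 16 cases and endothelial markers in 8 of 10 against EASCs. Other genes with large differences from SASCs had close levels in PASCs and EASCs: Igf1 was at means of 28.9 and 27.8 CPM, Lpl at 115 and 112 CPM, and Tgfbr2 at 289 and 295 CPM.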

How the data were processed

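RNA of 9 samples was sequenced as paired-end reads by the authors, who trimmed them with cutadapt and FastX-Toolkit and aligned them with TopHat. The study's methods name rn6, and the submitters' processing notes name rn5 and TopHat2. Positions and contig names in the table are those of rn6. The deposited values are raw read counts per gene, and the tool that counted them, and whether it used strand, is not given in the sources used here, so reads of overlapping genes and near-identical copies are uncertain. A spreadsheet had turned 27 gene symbols into dates, which were restored by gene ID.

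Counts were analysed with edgeR 4.0.16 in R 4.3.3 (limma 3.58.1): filterByExpr, TMM (factors 0.740 to 1.23), and 1 quasi-likelihood model of all 9 samples without a block, with Benjamini-Hochberg adjustment. The common biological coefficient of variation was 0.0685. On simulated counts for the comparison of PASCs and SASCs, 190 of 200 genes changed by 2 on the log2 scale were called, with 2 false calls, among 14436 genes. These counts were drawn from the fitted model itself, with few genes changed, evenly up and down, whereas 26.9% of genes were DEGs in the data. The simulation therefore checks the procedure and does not measure how accurate the calls are here. No 2 libraries of SASCs or of PASCs agreed within sampling noise (chi-square per degree of freedom 6.23 to 53.4), so none was treated as a repeat deposit of another. This does not show that they are separate rats. DESeq2 1.42.0 was an alternative.

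The 30 classes and 13 marker lists were written from general knowledge, with earlier results of these data known. Named genes were, in each group of a class, up to 3 members upregulated and up to 3 downregulated with the largest change (mean CPM of at least 5 in the higher group, samples apart) and the most abundant member that was no DEG; the 12 largest changes in each direction at 20 CPM or more; up to 12 genes detected in 1 depot; and markers. Further members are named from the lists to say which ones a count holds. The comparison with genes of the same length was added after the data were seen. Genes on cell cycle, actin, complement, cholesterol, and lysosomes are not described here. Promoters came from RefSeq (GRCr8), whose coordinates were not mixed with those of the count table. Some genes are not reported here.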

Additional observations from a re-analysis of the deposited data

How the results depend on the processing

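Upregulated and downregulated DEGs between PASCs and SASCs numbered 1779 and 2200. Without a fold limit there were 5116 and 5111, and a test against a fold of 2 gave 1249 and 1456. DESeq2, no filter, the 6 samples alone, upper quartile scaling, and removal of ribosomal RNA gave 1661 to 1908 and 2128 to 2417. With total counts and no TMM the median log2 fold change of all genes moved from -0.01 to -0.33, and the split from 44.7% upregulated (1779 and 2200) to 28.5% (1262 and 3169). There the fold changes of Hoxc6 (-0.0855), Bgn (-0.0923), Sparc (-0.00157), Slc39a14 (-0.13), Aldh1l2 (-0.0852), and Ephb4 (-0.13), none of them DEGs, turned negative, and 35 of 399 named genes were no longer DEGs, among them Col5a1, Itga3, Fzd1, Fzd2, Tgfb1, Unc5b, and Me1. Under all other settings together 12 named genes lost the call, among them Egfr, Col4a5, and Mrpl42 when 1 library was left out. Leaving out each library gave 1753 to 1818 and 2171 to 2298 DEGs. A replicate block gave 1764 and 2180, and 1 named gene, Aldoc, lost the call. Samples of the same number did not deviate together (r from -0.03 to 0.04 over all same-number pairs of the 3 groups), so no pairing by number was seen. With 3 samples a group, noise can hide a weak shared effect, so pairing is not excluded. Between PASCs and EASCs there were 325 and 766 DEGs, 2146 and 2384 without a fold limit, 129 and 268 against a fold of 2, 319 and 748 with the block, and 303 to 326 and 701 to 756 with a library left out. Genes detected in PASCs or in SASCs numbered 21 and 51 at a minimum of 1 CPM and 3 and 10 at 5 CPM. Depth sets a floor of 0.104 to 0.159 CPM for 3 counts.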

Other observations

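Of 27 semaphorin and plexin genes 10 were downregulated in PASCs and 3 were upregulated: Sema6d was at 25.0, 23.3, and 24.7 CPM in SASCs and at 0.689, 1.08, and 1.06 CPM in PASCs, and Plxnb1, a semaphorin receptor, fell from 26.6 to 2.28 CPM. The repulsive guidance receptor Robo2 was at 74.8, 66.4, and 81.6 CPM in SASCs and at 5.20, 4.93, and 6.62 CPM in PASCs, and its ligand Slit3 fell from 1042 to 362 CPM, while the netrin receptor Unc5b rose by 1.25 on the log2 scale. Unc5b was no DEG with libraries scaled by total counts. Among 74 tested ion channel genes 21 were downregulated and 12 upregulated. Gja1 (connexin 43) fell from 1891 to 539 CPM, and Kcnn4, a calcium-activated potassium channel, rose from 0.107 to 5.08 CPM. Among 21 imprinted genes 5 were downregulated (23.8%) and 3 upregulated (14.3%), near the 14.9% and 12.0% of all genes. Cdkn1c, an inhibitor of the cell cycle, was at 30.7, 29.8, and 31.9 CPM in SASCs and at 0.650, 0.523, and 0.900 CPM in PASCs, and Mest fell from 28.1 to 1.76 CPM.

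Skeletal lineage genes did not move one way, with 10 upregulated and 8 downregulated of 26. Sox9, the main chondrogenic factor, was at 7.09, 6.28, and 8.05 CPM in SASCs and at 32.9, 31.7, and 39.0 CPM in PASCs, and Enpp1, which makes the mineralization inhibitor pyrophosphate, rose 12.4-fold from 9.28 to 115 CPM. Scx, the tendon factor, rose from 0.205 to 7.26 CPM, but its gene lies over a more abundant one, Bop1, on the other strand. Prg4 (lubricin) and Pth1r were downregulated. Among vasoactive receptors, Ednra (an endothelin receptor) fell from 18.3 to 1.12 CPM and Oxtr from 6.31 to 0.306 CPM, and the phosphodiesterase Pde2a rose from 20.1 to 145 CPM while Pde3a fell from 80.3 to 10.6 CPM. Of 677 tested long noncoding RNAs 7.68% were upregulated and 31.8% downregulated.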
